A study of Arabidopsis thaliana with 6 samples.

Results

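Genes of cuticular wax synthesis and export were followed in RNA-seq of wild-type Arabidopsis seedlings (*Arabidopsis thaliana*, Col-0). They were picked by locus identifier and number 10 in all: *CER1*, *CER2*, *CER3*, *CER4*, *CER6* (*KCS6*), *KCS1*, *KCS5*, *MAH1*, *WSD1* and *LTPG1*. Of these, 7 were measured among the 18368 genes of the table, and *CER4*, *WSD1* and *MAH1* were not analysed here. The vernalized seedlings (4v, 3 libraries) were kept for 7 days at 22 °C and then 28 days at 5 °C, so they were 35 days old. The non-vernalized seedlings (0v, 3 libraries) were kept for 11 days at 22 °C. Age and cold therefore cannot be told apart in this design. Whole seedlings were used, all of wild-type genotype, and biological replicates came from separate plates.

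The plant cuticle is a film of cutin and waxes on the outer face of the shoot epidermis, and it limits water loss. Its waxes are made in the endoplasmic reticulum of epidermal cells, where very-long-chain fatty acids are built by an elongase complex whose 3-ketoacyl-CoA synthase (KCS) sets the chain length. The elongated chains are turned into aldehydes and alkanes by CER1 and CER3, or into alcohols and wax esters by CER4 and WSD1, and MAH1 oxidizes alkanes. The products leave the cell through ABC transporters, and the lipid transfer protein LTPG1 at the plasma membrane takes part in their export. *CER* names come from *eceriferum* mutants, whose stems lack the usual waxy bloom.

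Values are normalized counts, that is, read counts divided by 1 size factor per library. Recovered totals were 1636687 to 23141488 reads a library. The depth fell into 4 shallow libraries (1636687 to 1836717 reads, median gene 24 to 30 reads) and 2 deep ones, 4v replicate 2 and 0v replicate 3 (20005225 to 23141488 reads). 0v replicate 3 was low for the wax genes, but not for these alone. It held the lowest 0v value of 6 of the 7 genes, against 33.3% of all genes, and its values were 22.3% to 88.6% of the mean of the other two 0v libraries. The cutin genes named below (*LTL1*, *GPAT6*, *CYP86A4* and *CYP86A8*) were also lowest there, at 38.1% to 78.7%. Not every listed cutin gene was, and *DEWAX* and *WRI4* were highest there. Over all genes, its Spearman correlations with the other 0v libraries were 0.910 and 0.915. Those libraries correlated at 0.932 with each other, and the 4v libraries at 0.934 to 0.939. Each wax gene is therefore also given without 0v replicate 3. That library was picked by its low values for these same genes, and leaving it out made all 7 log2 fold changes more negative. Fits without 0v replicate 3 are therefore no separate support for a fall. The cold markers *KIN1*, *COR15A* and *VIN3* were all higher in 4v (3 of 3, log2 fold changes of 8.85, 8.83 and 4.10). In whole seedlings, fewer epidermal cells and less RNA per cell cannot be told apart.

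Of the 7 wax genes, 2 passed the test, and both fell in 4v: *KCS5* to 25.6% and *CER2* to 50.3% of their 0v means. The test was limma on log2(normalized count + 4), with Benjamini-Hochberg adjustment over 16771 genes and a threshold of 0.05. No wax gene was higher by limma, at an unadjusted p under 0.05 (0 genes), or by edgeR, DESeq2 or limma-voom (0 genes each). Over all genes tested, 6.99% were lower and 6.46% higher in 4v by the same rule. In 4 of the 7 genes (*CER3*, *CER6*, *KCS5* and *CER2*) every 4v value lay below every 0v value, which held for 18.7% of all genes. All 7 fitted log2 fold changes were negative, with a median of -0.74 against 0.05 over all genes, and 47.3% of all genes had a negative value. The unadjusted p was under 0.05 for 4 genes, all lower in 4v.

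The sequences upstream of the 2 genes that passed are shown first, with that of *CER1*, the only one of the 7 measured genes to hold any of the motifs searched. Each is the 250 bases before the annotated start in the RefSeq annotation of TAIR10.1, read on the strand of the gene and 5′ to 3′. Capitals mark a motif match, and none was found in the first 2. *KCS5* lies on the minus strand of chromosome 1 (chr1:8940614-8940863), *CER2* on the plus strand of chromosome 4 (chr4:12660437-12660686) and *CER1* on the plus strand of chromosome 1 (chr1:418166-418415).
KCS5: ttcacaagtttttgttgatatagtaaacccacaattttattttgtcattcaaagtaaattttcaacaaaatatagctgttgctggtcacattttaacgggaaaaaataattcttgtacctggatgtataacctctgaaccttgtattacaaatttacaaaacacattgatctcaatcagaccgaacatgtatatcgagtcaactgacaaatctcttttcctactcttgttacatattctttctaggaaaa
CER2: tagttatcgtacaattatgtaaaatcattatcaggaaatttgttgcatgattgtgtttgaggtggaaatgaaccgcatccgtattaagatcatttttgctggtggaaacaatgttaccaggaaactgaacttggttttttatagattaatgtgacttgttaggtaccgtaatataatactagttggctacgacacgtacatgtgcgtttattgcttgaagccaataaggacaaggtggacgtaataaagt
CER1: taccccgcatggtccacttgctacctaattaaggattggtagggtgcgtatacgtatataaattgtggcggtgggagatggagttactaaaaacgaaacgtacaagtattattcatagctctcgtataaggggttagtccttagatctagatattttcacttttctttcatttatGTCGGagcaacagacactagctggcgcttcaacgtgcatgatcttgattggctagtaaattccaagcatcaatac

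The motifs were searched on both strands, and no match overlapped another. The C-repeat core CCGAC, which cold-induced CBF factors bind, is in 2388 (13%) of the 18305 upstream windows of this length and in 1 of the 7 wax genes, *CER1*, 75 bases before its start and on the minus strand. The L1 box of epidermal genes (TAAATGCA or TAAATGTA) is in 4.51% of all windows and in 0 of the 7. The ABRE, an element of abscisic acid responses, was searched only in the spelling ACGTGGC, which is in 3.88% of windows. The GCC box core (GCCGCC), which ERF factors bind, is in 1.96%. Both of these spellings are in 0 of the 7. Other spellings of the ABRE were not searched.

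Chain elongation comes first in the pathway. *KCS5* (AT1G25450, chr1:8938387-8940613, 2 exons) encodes a 3-ketoacyl-CoA synthase closely related to CER6. It had 57.9, 41.5 and 36.9 normalized counts in 4v, from 19, 205 and 13 reads, against 178, 216 and 138 in 0v, from 52, 67 and 526 reads. Every 4v library was far below every 0v library, and the groups were about as tight as each other on the log scale. The means were 45.4 ± 11 in 4v and 177 ± 38.9 in 0v (SD, n = 3 each). The log2 fold change was -1.88 (SE 0.25, 95% confidence interval -2.47 to -1.28), with a limma adjusted p of 0.0071. Among all genes tested, 2.16% had a log2 fold change as low or lower. The fall stood at each depth, at -1.64 between the 2 deep libraries and -1.99 among the shallow ones, and without 0v replicate 3 it was -2.04 (limma adjusted p = 0.00536).

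*CER2* (AT4G24510, chr4:12660687-12662656, 2 exons) encodes a protein of the BAHD acyltransferase family that lets CER6 make the longest wax precursors. It had 152, 124 and 114 normalized counts in 4v, against 328, 226 and 221 in 0v, with no overlap. 0v replicate 1 was the high one, while the other two 0v libraries lay close together. It differed by -0.96 on the log2 scale (SE 0.21, interval -1.45 to -0.46), with a limma adjusted p of 0.0287, and -1.05 (adjusted p = 0.0246) without 0v replicate 3. The difference was -0.82 between the deep libraries and -1.03 among the shallow ones. The call of *CER2* was lost without any single one of the other 5 libraries, when the limma adjusted p was 0.0541 to 0.0972, although the fold change stayed between -1.07 and -0.77. *CER2* overlaps AT4G24520 and AT4G07275 on the opposite strand and shares 66 stretches of 31 bases (4.13% of its own) with AT4G24520. Whether strand was used in the read counting was not stated, so reads from the shared stretch may belong to either gene.

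*CER6* (AT1G68530, named *CUT1* in the table, chr1:25712414-25715024, 2 exons) encodes the main synthase for wax precursors of the stem. It had 1197, 1279 and 1408 normalized counts in 4v and 2171, 1578 and 1661 in 0v. The groups did not overlap, but the highest 4v value was close to the lowest 0v value. The log2 fold change of -0.47 (SE 0.17, interval -0.85 to -0.08) did not pass (limma adjusted p = 0.104), nor without 0v replicate 3 (-0.52, adjusted p = 0.0814).

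*KCS1* (AT1G01120, chr1:57164-59215, 1 exon) encodes an elongase of broad expression. It had 274, 188 and 290 normalized counts in 4v, against 468, 297 and 212 in 0v, and the groups overlapped. The fitted difference was -0.32 on the log2 scale (SE 0.31, interval -1.05 to 0.40; limma adjusted p = 0.508). The interval covers values on both sides of 0, so no direction can be given. Without 0v replicate 3 it was -0.59 (limma adjusted p = 0.172), without 0v replicate 1 -0.03 and without 4v replicate 2 -0.13.

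The alkane branch is carried by CER1 and CER3, which act together to turn very-long-chain acyl-CoA into alkanes. *CER3* (AT5G57800, chr5:23420184-23424117, 11 exons) had 210, 204 and 185 normalized counts in 4v, against 577, 461 and 218 in 0v. The 4v libraries were tight, and the 0v libraries were not: replicate 3 lay just above the highest 4v value, at 42.1% of the mean of the other two. The log2 fold change with all libraries was -0.95 (SE 0.34, interval -1.74 to -0.15), and it did not pass (limma adjusted p = 0.106). Without 0v replicate 3, left out because it was low, it was -1.36 (SE 0.16, interval -1.73 to -0.98) and passed (adjusted p = 0.00395). Without any other single library it did not pass (limma adjusted p = 0.206 to 0.241). The 2 deep libraries differed by -0.10 on the log2 scale and the shallow ones by -1.37. With all 6 libraries, DESeq2 called *CER3* lower (adjusted p = 0.0404), so the call turned both on 1 library and on the test.

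*CER1* (AT1G02205, chr1:418416-422579, 8 exons) had 73.1, 31.2 and 28.4 normalized counts in 4v and 92.2, 139 and 25.8 in 0v. The lowest value of all 6 was that of 0v replicate 3, below every 4v library, so the groups overlapped. This rests on 24, 154 and 10 reads in 4v and 27, 43 and 98 reads in 0v, the fewest of the 7 wax genes in 5 of the 6 libraries. The log2 fold change was -0.74 with a wide interval (SE 0.62, -2.20 to 0.73; limma adjusted p = 0.452). Without 0v replicate 3 it was -1.40 and still did not pass (adjusted p = 0.0752), while without 0v replicate 2 it was -0.27 (adjusted p = 0.803) and without 4v replicate 1 -1.14. The deep pair gave 0.24 and the shallow libraries -1.23, in opposite directions.

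*LTPG1* (AT1G27950, chr1:9740508-9742159, 2 exons), the export gene of the set, had 536, 544 and 656 normalized counts in 4v, inside the 0v range of 867, 636 and 421. Its log2 fold change was -0.09 (SE 0.26, interval -0.70 to 0.52; limma adjusted p = 0.837). It was -0.36 (adjusted p = 0.197) without 0v replicate 3 and turned to 0.15 without 0v replicate 1, so no direction can be given. *LTPG1* overlaps AT1G27960 on the opposite strand, and shares no stretch of 31 bases with it.

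**Figure D1:**
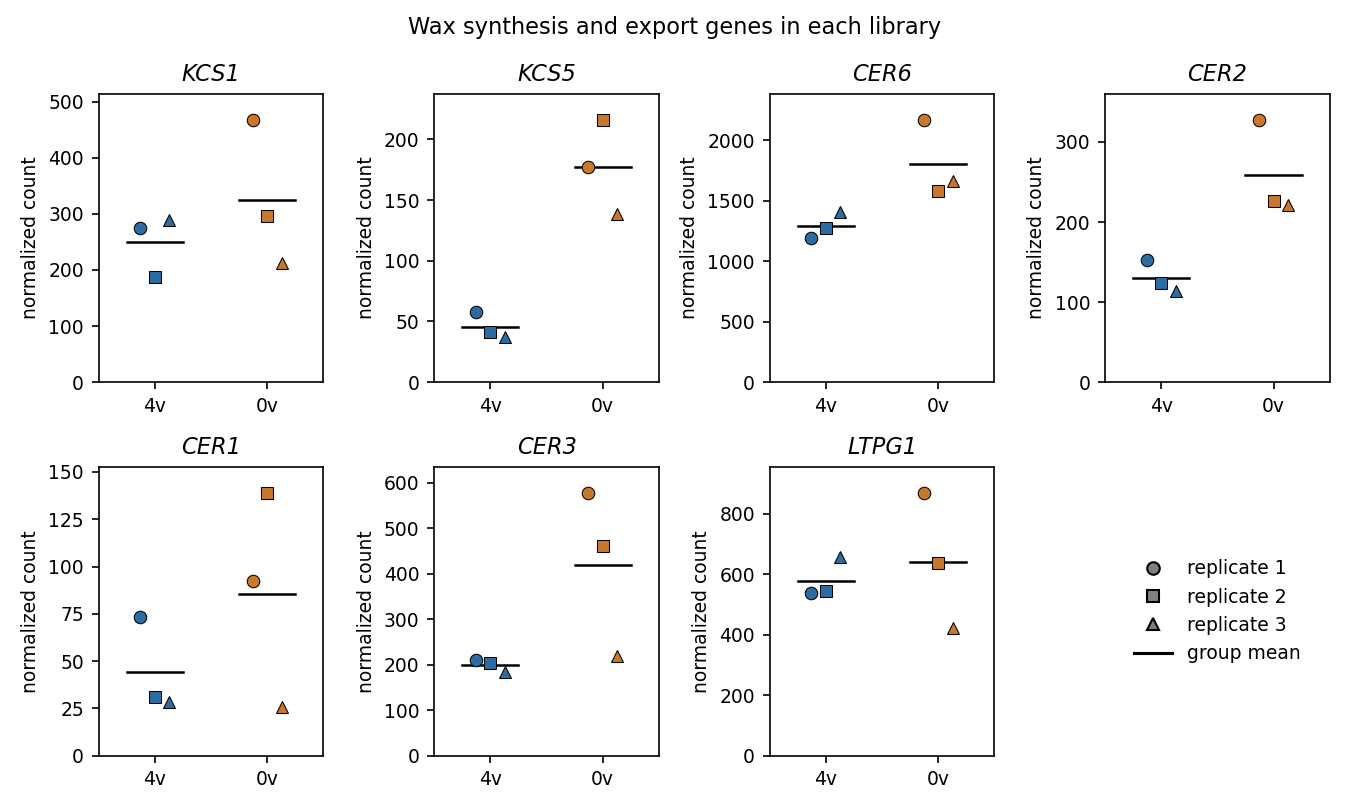
Normalized counts of the 7 wax genes in each library, 4v left and 0v right in every panel (linear axes from 0). Symbols are replicates and bars are group means. *KCS5*, *CER2*, *CER3* and *CER6* had no overlap between groups, and 0v replicate 3 (triangles) was the lowest 0v library in 6 of the 7 panels.

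**Figure D2:**
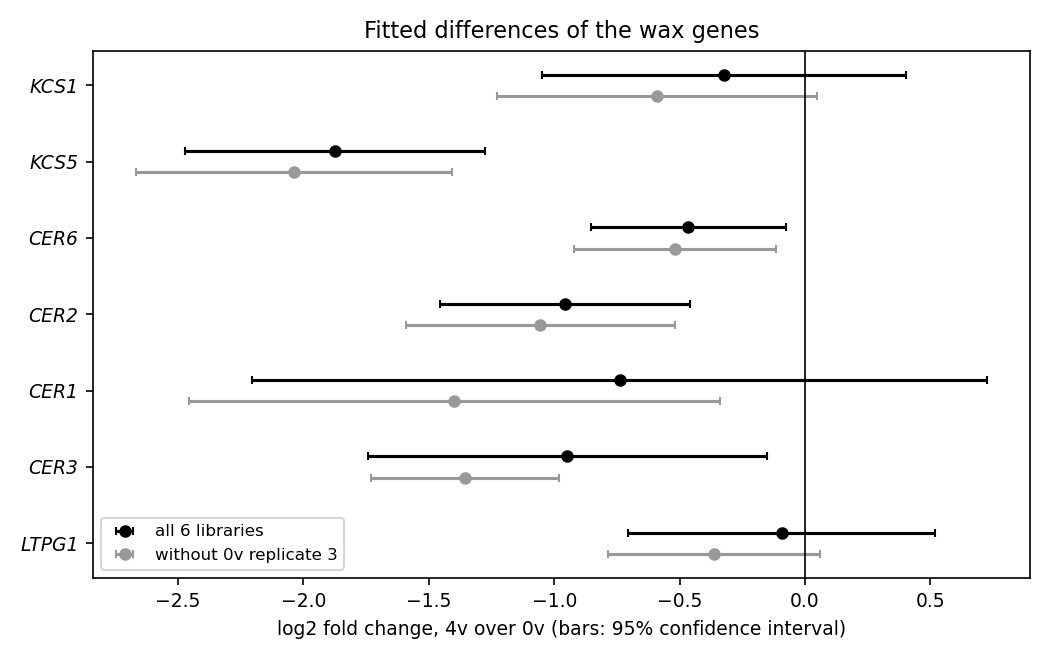
Fitted log2 fold changes of 4v over 0v with 95% confidence intervals, from all 6 libraries (black) and without 0v replicate 3 (grey). The interval of *CER3* ran from -1.74 to -0.15 with all libraries and from -1.73 to -0.98 without that library, and *KCS5* had the lowest estimate in both.

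The 7 genes also differed among themselves in spread. On the log2 scale the range of the 0v libraries was wider than that of the 4v libraries for all 7 genes, as it was for 63.3% of all genes. The 0v range was widest for *CER1* (2.26, against 1.25 in 4v) and *CER3* (1.39, against 0.18 in 4v), and near equal for *KCS5* (0.63, against 0.60 in 4v). 0v replicate 1 was the highest 0v library for 5 of the 7 genes, which held for 32.6% of all genes.

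Levels of different genes were compared per 1000 bases of the longest transcript. In 4v the order was *LTPG1* with a mean of 589, *CER6* with 575, *KCS1* with 122, *CER2* with 79.8, *CER3* with 77.0, *KCS5* with 21.6 and *CER1* with 14.9 normalized counts per 1000 bases. Within this order *LTPG1* (546 to 668) and *CER6* (531 to 625) did not differ beyond their spread, nor did *CER2* (69.8 to 93.6) and *CER3* (71.3 to 81.2). *KCS1* (91.7 to 141) overlapped *CER2* by its lowest library. *KCS5* and *CER1* overlapped as well. In 0v *CER6* had 801 and *LTPG1* 653, while *CER3* (162), *CER2* (159) and *KCS1* (159) were close to each other, and *KCS5* (84.4) and *CER1* (28.8) came last. The genes thus covered a wide span of levels in both groups, with the main elongase and the export protein at the top.

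**Figure D3:**
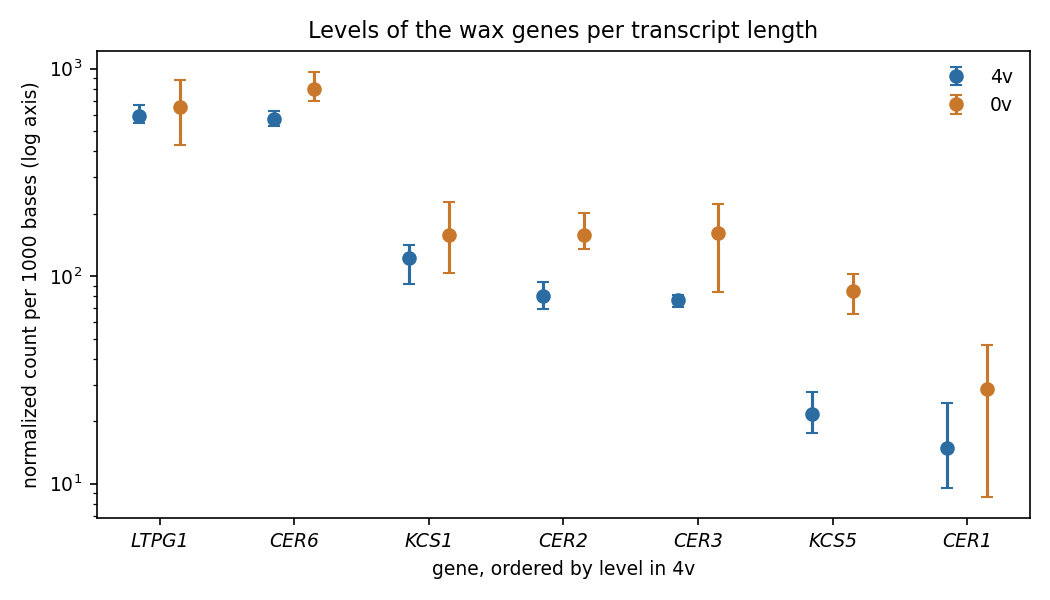
Normalized counts per 1000 bases of the longest transcript (log axis) in 4v (left point of each pair) and 0v (right point). Points are means of 3 libraries and bars span the lowest to the highest library. *LTPG1* and *CER6* were the 2 highest genes and *CER1* the lowest in both groups.

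Genes around the pathway were taken from lists of known function. Of 26 other genes of wax synthesis and export, 23 were tested. Only *LACS2*, which encodes a long-chain acyl-CoA synthetase that activates fatty acids for cutin and wax, passed in limma, and it was higher in 4v. None was lower by limma (0 genes). At an unadjusted p under 0.05, 5 were higher and 4 lower. By edgeR, DESeq2 and limma-voom, 1, 1 and 2 were higher and 1, 1 and 3 lower. The median log2 fold change of the list was -0.04. *LACS2* had 277, 186 and 227 normalized counts in 4v and 116, 142 and 83.4 in 0v, with no overlap (log2 fold change 1.003, SE 0.25, adjusted p = 0.0394). The call of *LACS2* was lost without any one 4v library or without 0v replicate 1 (adjusted p = 0.0683 to 0.128). Without 0v replicate 3 its log2 fold change was 0.80 (limma adjusted p = 0.0479).

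Of the 15 KCS genes listed here, including the 3 among the wax genes, 14 were tested, and *KCS5* was the only one of these to pass in limma. KCS genes outside the lists were not looked at. Of the 14 fitted log2 fold changes, that of *KCS5* included, 9 were negative and 5 positive, with a median of -0.24. *KCS12* had 15.2, 5.47 and 5.68 normalized counts in 4v and 430, 35.5 and 64.7 in 0v. Its groups did not overlap, but 0v replicate 1 was far above the rest, and the difference of -3.13 on the log2 scale did not pass (SE 0.86, limma adjusted p = 0.0548). *KCS12* passed in 7 of 19 alternatives, among them edgeR (adjusted p = 0.0428), DESeq2 (adjusted p = 0.000101) and leaving out 0v replicate 2 (adjusted p = 0.0455). *KCS3* had 295, 277 and 241 in 4v and 181, 177 and 100 in 0v (0.85, adjusted p = 0.0645). Without 0v replicate 3 its log2 fold change was 0.58 (limma adjusted p = 0.0444). *KCS20*, an elongase of root suberin and stem wax, had 871, 671 and 948 in 4v and 696, 571 and 484 in 0v (0.51, adjusted p = 0.125). *PAS2*, the dehydratase of the same elongase complex, had 201, 216 and 230 in 4v and 287, 310 and 283 in 0v, a small difference (-0.44, adjusted p = 0.0737) without overlap.

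The ABC transporters of wax export were measured beside *LTPG1*. *CER5* (*ABCG12* in the table) had 743, 660 and 727 normalized counts in 4v and 676, 519 and 440 in 0v, and *ABCG11*, its partner, had 493, 510 and 562 in 4v and 515, 368 and 354 in 0v. Neither passed (log2 fold changes of 0.40 and 0.35, limma adjusted p = 0.173 and 0.213).

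Regulators of the pathway were read next. Of 13 listed, 10 were tested, and 3 passed in limma, all of them lower in 4v. None of these 10 was higher by limma, at an unadjusted p under 0.05, or by edgeR, DESeq2 or limma-voom (0 genes each). *DEWAX* (AT5G61590, *ERF107* in the table) encodes an ERF factor that represses wax genes in darkness. It had 301, 452 and 355 normalized counts in 4v, against 1205, 932 and 1554 in 0v. The groups lay far apart, and the log2 fold change was -1.71 (SE 0.23, adjusted p = 0.0070). The related *ERF106* (AT5G07580) had 131, 178 and 162 in 4v and 324, 345 and 302 in 0v, tight in both groups (-1.03, SE 0.16, adjusted p = 0.0116). *WRI4*, which encodes an AP2 factor that activates wax genes in stems, had 97.4, 74.6 and 73.8 in 4v and 375, 145 and 562 in 0v. Its 0v libraries were spread, its log2 fold change was -1.90 (SE 0.46, adjusted p = 0.0376), and its call was lost without any one 4v library or without 0v replicate 1 (adjusted p = 0.0945 to 0.112). *DEWAX* and *WRI4*, unlike the wax genes, were highest in 0v replicate 3.

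*CER9* (*SUD1* in the table), a ubiquitin ligase gene whose loss alters wax and cutin, had 554, 468 and 440 normalized counts in 4v and 703, 655 and 751 in 0v. Its groups did not overlap, and it missed the threshold narrowly (log2 fold change -0.53, SE 0.14, limma adjusted p = 0.0501). *MYB96*, an activator of wax genes under drought, had 268, 116 and 153 in 4v and 178, 83.9 and 101 in 0v, which overlapped (0.54, adjusted p = 0.368). *SHN3*, of the SHINE group of cuticle activators, was under the mean of 10 needed for the test: 15.2, 20.7 and 11.4 normalized counts in 4v, from 5, 102 and 4 reads, and 0, 0 and 0.263 in 0v, where a single read was seen. With no filter on the mean, limma called it higher in 4v (adjusted p = 0.0175).

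Cutin is the polyester part of the cuticle. Of 17 listed genes of its synthesis and export 16 were tested, with 1 higher in 4v by limma and 0 lower. At an unadjusted p under 0.05, 3 were higher and 0 lower. By edgeR, DESeq2 and limma-voom, 1, 1 and 5 were higher and 0 lower in each. The median log2 fold change was 0.22. The gene higher by limma was *LTL1*, a GDSL lipase gene. It had 338, 247 and 287 normalized counts in 4v and 109, 132 and 46.0 in 0v (log2 fold change 1.67, SE 0.37, limma adjusted p = 0.0291). That call too was lost without any one 4v library or without 0v replicate 1 (adjusted p = 0.0604 to 0.106). *GPAT6*, an acyltransferase gene of cutin synthesis, had 116, 91.2 and 116 in 4v and 85.3, 54.8 and 47.4 in 0v (0.78, adjusted p = 0.0926). *CYP86A4*, a fatty acid hydroxylase gene, had 42.6, 41.3 and 53.9 in 4v and 27.3, 32.3 and 11.8 in 0v (0.92, adjusted p = 0.152). *CYP86A8*, another hydroxylase gene, had 122, 110 and 176 in 4v and 236, 187 and 166 in 0v (-0.53, adjusted p = 0.162). Without 0v replicate 3 the log2 fold changes were 1.23 for *LTL1*, 0.62 for *GPAT6*, 0.56 for *CYP86A4* and -0.64 for *CYP86A8*. Each was lower than with all libraries. No difference between these lists was tested.

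**Figure D4:**
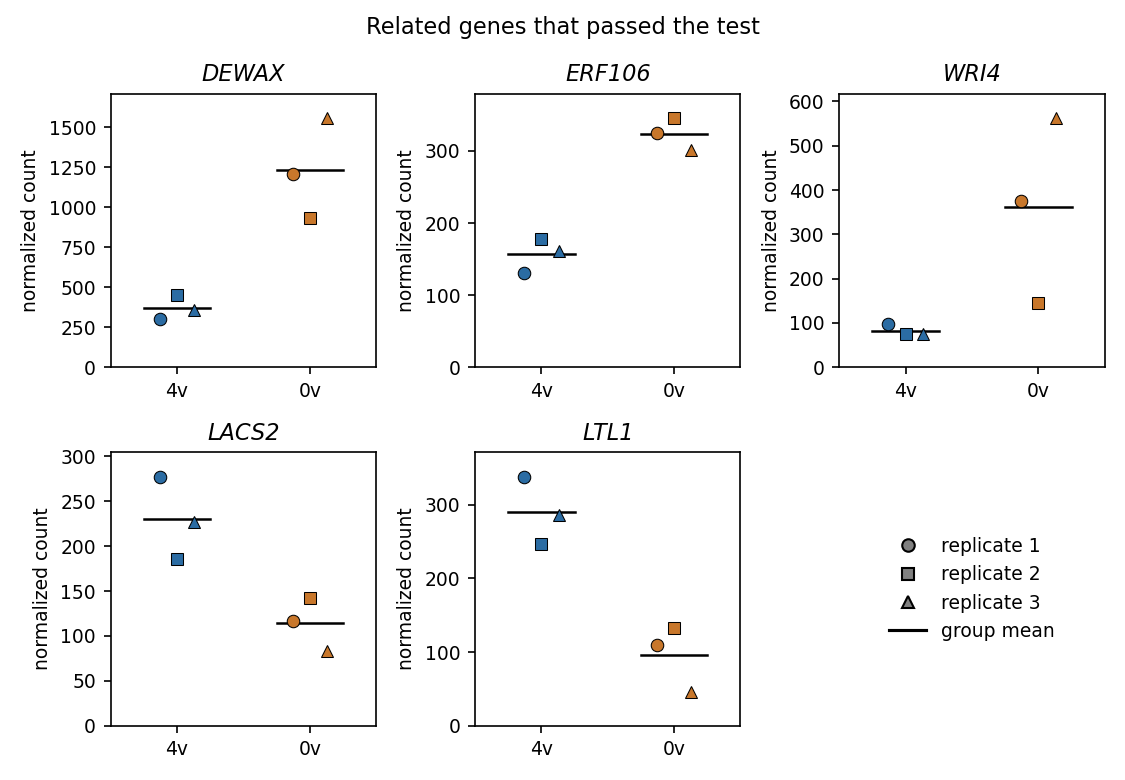
Normalized counts of the 5 related wax, regulator and cutin genes that passed the test, 4v left and 0v right in each panel (linear axes from 0, symbols are replicates, bars are group means). *DEWAX*, *ERF106* and *WRI4* were lower in 4v, and *LACS2* and *LTL1* higher, with no overlap in any panel.

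Suberin, a related polyester of roots, was listed as the counterpart below ground. Of 7 genes tested, 1 was lower in 4v by limma and 0 were higher. At an unadjusted p under 0.05, 2 were lower and 0 higher. By edgeR, DESeq2 and limma-voom, 1, 2 and 1 were lower and 0, 0 and 1 higher. *FAR4*, a fatty acyl reductase gene of suberin alcohols, had 12.2, 6.69 and 14.2 normalized counts in 4v, from 4, 33 and 5 reads, and 61.4, 96.8 and 33.4 in 0v (log2 fold change -2.10, SE 0.46, limma adjusted p = 0.0273). It was lost without any one library other than 0v replicate 3 (adjusted p = 0.0654 to 0.0840).

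Markers of the tissues that a seedling holds were read beside these results. All 7 markers of the shoot epidermis, where wax is made, were measured, none was at 0, and none passed in limma (0 genes; 1 higher and 0 lower at an unadjusted p under 0.05, and 0, 1 and 1 higher by edgeR, DESeq2 and limma-voom). Their summed level was 4900 to 5988 normalized counts in 4v and 3633 to 5550 in 0v, which overlapped, and their median log2 fold change was 0.20. *PDF1*, an epidermal marker, had 1297, 1050 and 1530 in 4v and 720, 971 and 507 in 0v (0.85, adjusted p = 0.0715, and 0.0478 without 0v replicate 2). *FDH* (*KCS10*), an epidermal KCS gene, had 773, 621 and 781 in 4v and 1335, 916 and 739 in 0v (-0.42, adjusted p = 0.254). The summed level of the 7 wax genes was 2411 to 2717 in 4v and 2898 to 4680 in 0v, with no overlap. Its largest parts were *CER6* and *LTPG1* (4v means of 1295 and 579), which did not pass. *KCS5* and *CER2*, which passed, had 4v means of 45.4 and 130. The largest part of the epidermal sum was *LTP1* (4v mean 2577). These sums therefore mostly follow a few abundant genes. Of 4 mesophyll markers, 1 (*RBCS3B*) was lower and none was at 0 in every library. The summed level of 6 root markers, 3 of which passed the mean of 10, was 81.1 to 171 in 4v and 160 to 284 in 0v, with no call (limma 0 genes, 0 higher and 1 lower at an unadjusted p under 0.05, 0 by edgeR, 1 lower by DESeq2 and 2 by limma-voom). The part of tissue make-up in the wax gene differences was not tested.

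**Figure D5:**
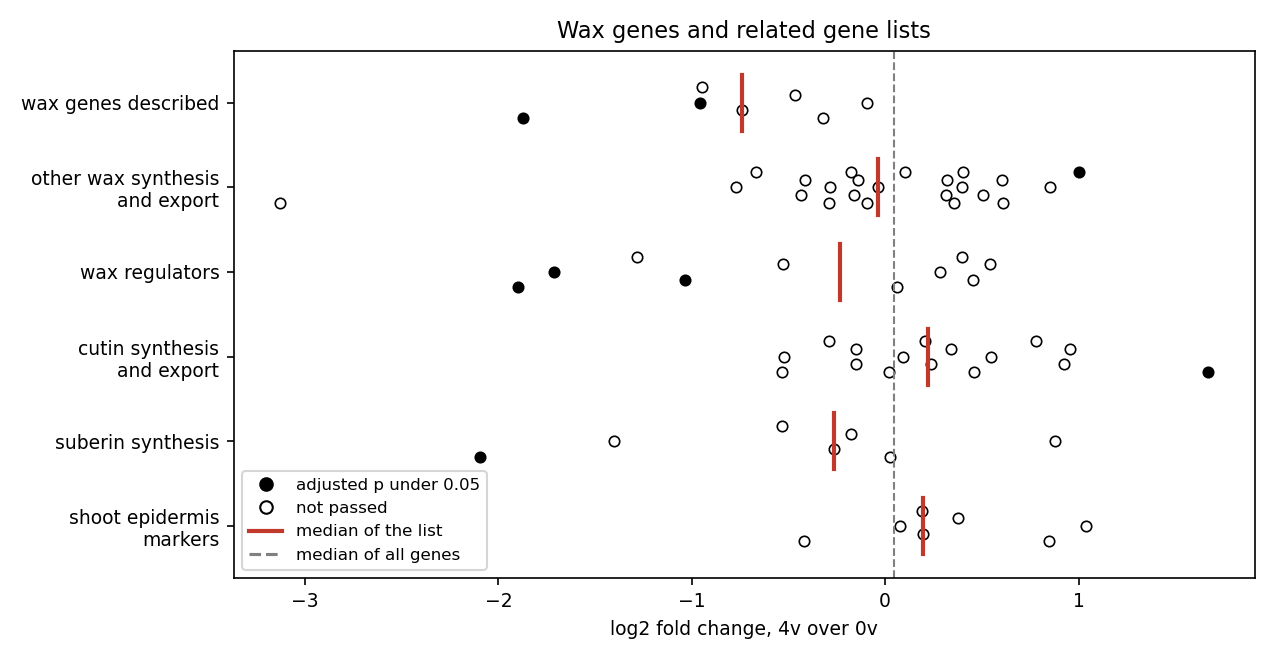
Log2 fold changes of 4v over 0v for the genes tested in 6 lists. Filled circles passed at an adjusted p under 0.05, red bars are list medians and the dashed line is the median of all genes (0.05). The medians were -0.74 for the 7 wax genes described, -0.04 for other wax genes, -0.23 for regulators, 0.22 for cutin, -0.27 for suberin and 0.20 for epidermis markers.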

How the data were processed

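Polyadenylated RNA of 3 4v and 3 0v libraries was sequenced, and the authors quantified it with Kallisto against TAIR10 and scaled it with DESeq2; versions and strand setting were not stated. The deposited signal of each gene is a read count divided by 1 size factor per library. The step of 1 read gave whole reads for 100% of values (tolerance 0.05 of a read). Of 18369 rows, 1 with displaced values was left out. Another 20 columns without a sample name, and the columns of the authors' own fold changes and p-values, were not used. Groups and replicate numbers came from the labels, and growth times from the study's supplement.

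The test was limma 3.58.1 (R 4.3.3, eBayes with trend, two-sided) applied to log2(normalized count + 4) in the 16771 genes that averaged 10 or more over all libraries. Fold changes are on that scale, which understates those of low genes. Intervals and p-values cover the spread between these libraries. The 31-base stretches and upstream sequences came from the RefSeq annotation of TAIR10.1, matched by locus for 18306 genes. Recovered reads were also tested with edgeR 4.0.16, DESeq2 1.42.0 and limma-voom, and the script was tested on simulated data.

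The genes and lists were chosen with earlier results of these data known. All 10 wax genes were to be named, with at most 4 genes of each other list with the smallest adjusted p and those called against their list's majority. *CER5*, *ABCG11*, *MYB96*, *KCS20* and *SHN3* were added after their values were seen. A list of 5 stomatal markers gave no call (0 of 3 tested; 0 at an unadjusted p under 0.05, 0 by edgeR and DESeq2, and 1 lower by limma-voom). Protein comparisons were not made.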

Additional observations from a re-analysis of the deposited data

How the results depend on the processing

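The call of *KCS5* held in all 19 alternatives and that of *CER2* in 12, lost in limma without trend (adjusted p = 0.0521), in the 4 shallow libraries alone (adjusted p = 0.0679) and without any library but 0v replicate 3. *CER3* passed in DESeq2 (adjusted p = 0.0404), in the shallow libraries (0.0141) and without 0v replicate 3, and *CER1*, *CER6*, *KCS1* and *LTPG1* passed in none of the 19. The shallow libraries alone also leave out 0v replicate 3. *LTPG1* changed sign under quantile normalization (0.0049) and without 0v replicate 1 (0.15), and ranged from -0.36 to 0.15 with 1 library left out.

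The count of wax genes lower in 4v was 1 without trend and 1 to 3 with 1 library left out. Among the other wax, regulator and cutin genes, 2 were higher in 4v, which became 0 with the replicate block, 0 without trend, 7 in limma-voom, 7 at a 1.5-fold change with an unadjusted p under 0.05, and 0 to 3 with 1 library left out. The 3 lower genes became 7 in limma-voom, 5 in DESeq2 and 6 at the 1.5-fold rule. Over all genes, 1083 higher and 1172 lower became 481 and 567 with the replicate block, 2498 and 2318 in limma-voom, 2280 and 2086 at the 1.5-fold rule, and 260 to 1521 and 400 to 1440 with 1 library left out. The causes were not tested.

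The replicate numbers were shared by the groups. Deviations of same-numbered libraries correlated at 0.07, -0.13 and -0.13 across genes, and the largest value, 0.27, joined the 2 deep libraries. The deep libraries bear different replicate numbers, so depth is mixed into this check. It cannot tell whether the samples were paired. Under the replicate block, 2 wax genes were lower, and the calls of *LACS2* (adjusted p = 0.0819), *WRI4* (0.0529), *LTL1* (0.0533) and *FAR4* (0.0783) were lost. Without the filter on the mean, the other wax, regulator and cutin genes gave 3 higher and 4 lower. The 4 shallow libraries limit low genes, with 24.2% to 29.6% of all genes under 10 reads.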
